A study of Mus musculus with 8 samples.

Results

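The 9 transcripts described here encode 6 STAT transcription factors (Stat2, Stat3, Stat4, Stat5a, Stat5b and Stat6) and 3 feedback inhibitors of the SOCS family (Socs1, Socs3 and Cish). They were chosen by gene symbol from a table of 56691 genes, each symbol matched 1 gene, and all 9 passed the filter on low counts that left 15870 genes for testing. RNA was measured in Kupffer cells, macrophages that reside in liver sinusoids, from mice injected with B16F10 cells, a mouse melanoma line, 7 days before. The 4 WT libraries came from wild-type mice and the 4 KO libraries from Vsig4-/- mice, which lack a macrophage receptor for complement fragments, and every liver of both genotypes bore melanoma metastases. Cells of digested livers were sorted as DAPI-, CD45+ and Tim-4+. The labels give neither age, sex and strain background of the mice, nor the extent of the deletion, nor whether each library came from a separate mouse, so p-values measure only library-to-library spread, part of which may be technical.

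STAT proteins wait in the cytoplasm until a cytokine receptor and its Janus kinases (JAKs) add a phosphate to a tyrosine, after which they pair through their SH2 domains, enter the nucleus and bind DNA. Stat2 serves interferon alpha and beta, Stat3 the interleukin-6 and interleukin-10 families, Stat4 interleukin-12, Stat5a and Stat5b the GM-CSF and common gamma chain cytokines, and Stat6 interleukin-4 and interleukin-13. Socs1, Socs3 and Cish are themselves STAT target genes whose products block receptors or JAKs, so their transcripts are often read as a trace of recent cytokine signalling. In macrophages Socs3 restrains interleukin-6 signals but not those of interleukin-10, and Stat6 drives alternative activation.

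The promoters of 4 members are shown because they hold the letters by which STAT complexes are known to bind. All 9 members matched RefSeq promoter windows of 300 bases (250 before and 50 after the annotated start, build GRCm38.p6), 12 windows in all since Stat4, Stat5a and Stat5b have an alternative start. Capitals mark the GAS motif TTCNNNGAA, which is its own reverse complement and is bound by STAT dimers, and the ISRE core (GAAA, any 2 bases, GAAA, on either strand), bound by the Stat2-containing interferon complex. The windows are Stat2 at chr10:128270248-128270547 (plus strand), Socs1 at chr16:10785487-10785786 (minus strand), Socs3 at chr11:117969317-117969616 (minus strand) and Cish at chr9:107296409-107296708 (plus strand).
Stat2: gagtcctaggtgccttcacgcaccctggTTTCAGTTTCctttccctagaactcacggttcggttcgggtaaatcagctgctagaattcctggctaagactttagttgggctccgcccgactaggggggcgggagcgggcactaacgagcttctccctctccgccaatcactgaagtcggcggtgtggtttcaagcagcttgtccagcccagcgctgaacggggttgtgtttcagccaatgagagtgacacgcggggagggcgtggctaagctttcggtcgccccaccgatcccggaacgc
Socs1: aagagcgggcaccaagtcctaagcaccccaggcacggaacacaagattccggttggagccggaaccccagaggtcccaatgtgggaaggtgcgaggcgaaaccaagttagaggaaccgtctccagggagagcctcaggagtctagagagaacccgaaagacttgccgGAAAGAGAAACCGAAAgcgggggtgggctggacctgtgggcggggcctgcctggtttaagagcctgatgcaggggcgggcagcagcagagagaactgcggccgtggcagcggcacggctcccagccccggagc
Socs3: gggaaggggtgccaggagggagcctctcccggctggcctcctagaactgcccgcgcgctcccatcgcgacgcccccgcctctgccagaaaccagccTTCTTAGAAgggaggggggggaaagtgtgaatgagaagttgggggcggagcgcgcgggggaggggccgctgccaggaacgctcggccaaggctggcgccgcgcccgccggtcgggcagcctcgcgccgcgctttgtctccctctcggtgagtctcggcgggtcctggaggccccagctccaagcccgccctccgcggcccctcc
Cish: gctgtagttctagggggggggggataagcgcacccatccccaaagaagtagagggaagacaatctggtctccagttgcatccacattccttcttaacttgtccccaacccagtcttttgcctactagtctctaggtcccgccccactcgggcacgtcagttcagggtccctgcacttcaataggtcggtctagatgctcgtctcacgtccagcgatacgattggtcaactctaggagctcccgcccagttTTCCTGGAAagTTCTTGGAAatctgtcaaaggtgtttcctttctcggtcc

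Stat2 held 1 ISRE match, beginning 222 bases before the start. Socs1 held 2 that overlap, GAAAGAGAAA and GAAACCGAAA, beginning 83 and 77 bases before it. Socs3 held 1 GAS match, TTCTTAGAA, beginning 154 bases before the start. Cish held 2 in tandem, TTCCTGGAA and TTCTTGGAA, at bases 1 to 9 and 12 to 20 after it. The remaining match was an ISRE in the alternative window of Stat4, and the windows of Stat3, Stat5a, Stat5b and Stat6 held neither motif. Of 32851 RefSeq windows of this length, 8.30% held a GAS and 3.44% an ISRE match. A match is a string of letters and says nothing on binding in these cells.

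Libraries held 15264043 to 19513844 counts, and a count of 0 allows up to 0.153 to 0.214 CPM (counts scaled to library size, with TMM factors from edgeR). This floor, like the counts, covers counting error alone. Vsig4 had 22498 to 46735 counts in WT and 2 to 9 in KO, which matched the labels, and it was the only gene past an adjusted p of 0.05 (edgeR quasi-likelihood test with Benjamini-Hochberg adjustment), 0.00630% of those tested. All 17 Kupffer cell markers were detected in every library, but Vsig4, which is among them, only at 0.111 to 0.501 CPM in KO, near the floor. Timd4, which encodes the sorted protein, was at 461 to 910 CPM (WT) and 170 to 625 CPM (KO). All 10 melanoma genes were also detected in every library, and their sum was 629, 547, 6153 and 5210 CPM in WT 1 to 4, against 2747, 3879, 13631 and 7011 CPM in KO 1 to 4. Summed Kupffer cell genes ran the other way, from 38789 CPM in WT 1 down to 8095 CPM in KO 3. That sum includes the deleted Vsig4, at up to 2890 CPM in WT. In such bulk libraries fewer cells of a type and less RNA per cell cannot be told apart.

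Levels between genes are compared in FPKM (counts per kilobase of exon, scaled to the column total). In the deposited coordinates, whose build the table does not name, Stat2 lies on chromosome 10 at 128106428 to 128128718, Stat6 on chromosome 10 at 127478855 to 127496826, Stat4 on chromosome 1 at 52026307 to 52146348, Socs1 on chromosome 16 at 10600104 to 10603400, Socs3 on chromosome 11 at 117856905 to 117860873 and Cish on chromosome 9 at 107173225 to 107179983. For all 9 members these differ from the GRCm38.p6 positions of the promoter windows, although mm10 is named in the submitters' processing notes, so the sets of coordinates cannot be combined. Stat6 was the most abundant member, with 55.3 ± 9.86 FPKM over the 8 libraries (mean ± SD), followed by Stat2 at 33.6 ± 13.1 FPKM. Each of these exceeded the next member in 8 of 8 libraries, although the ranges over libraries overlapped. Stat3 (14.8 ± 2.24 FPKM), Stat5b (13.3 ± 1.52 FPKM) and Socs3 (11.2 ± 4.20 FPKM) formed a middle tier. Stat3 was above Stat5b in 7 of 8 libraries and Stat5b above Socs3 in 6 of 8, with overlapping ranges. The order of these neighbours was not tested. A clear step followed: the lowest Socs3 value, 6.45 FPKM, lay above the highest Stat5a value, 5.31 FPKM. Stat5a (3.34 ± 0.992 FPKM), Stat4 (1.73 ± 0.835 FPKM), Socs1 (0.938 ± 0.400 FPKM) and Cish (0.760 ± 0.296 FPKM) were low, and Socs1 was above Cish in 5 of 8 libraries only.

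No member passed the adjusted threshold between genotypes, and none overlapped so little that WT and KO separated, a state found in 5.56% of tested genes. At an unadjusted p under 0.05 edgeR called 0 of 9 members, where 4.56% of all genes were lower and 4.23% higher in KO, and DESeq2 and limma called 0 of 9 after adjustment. Values were lower in KO for 8 of 9 members, all but Stat5a, where 50.4% of all tested genes were lower. The median log2 fold change of the 9, KO minus WT, was -0.37, beside -0.0028 over all tested genes. With the melanoma list as a covariate 5 of 9 were lower, beside 47.2% of all genes. With that covariate and the replicate block together 8 of 9 were lower again, beside 51.0% of all genes. The replicate number was also used as a block, a pairing read from these same data and not described by the labels. This pairing is not established: in deviations from genotype means WT 2 correlated more with KO 1 (0.669) than with KO 2 (0.544). In the blocked fit Stat2 and Stat3 fell, 2 of 9 members, beside 14.0% of all tested genes called (5.01% lower and 8.98% higher).

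**Figure D1:**
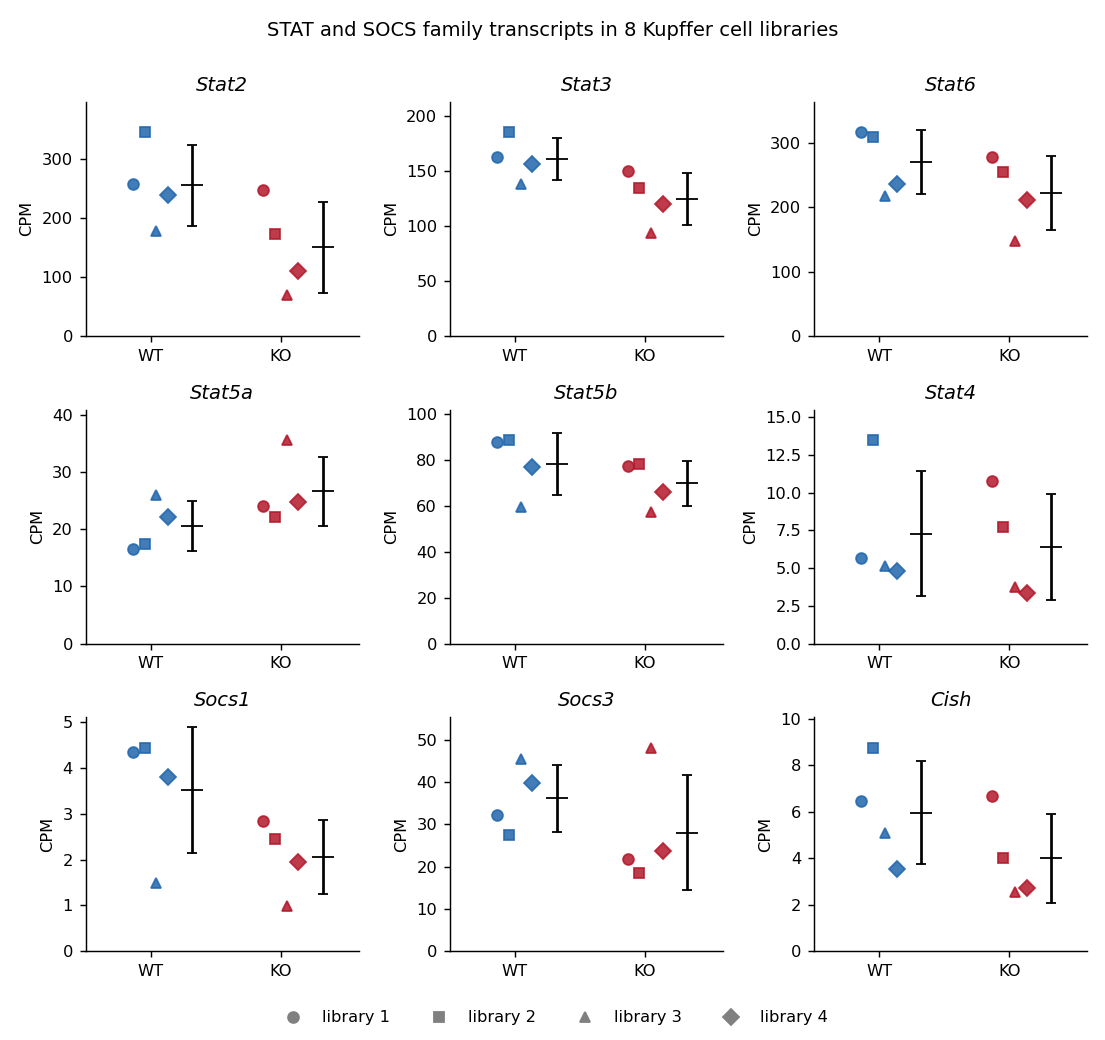
CPM of each member in the 4 WT (blue) and 4 KO (red) libraries, the marker shape giving the library number, with mean ± SD (n = 4) at the right of each group; axes start at 0. WT and KO points overlap in every panel, and KO 3 is the lowest or highest KO point in every panel but that of Stat4.

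Stat2, the interferon alpha and beta factor, had the second largest difference. It was at 259, 346, 179 and 240 CPM in WT 1 to 4, against 248, 173, 69.9 and 111 CPM in KO 1 to 4. WT 2 was highest and KO 3 lowest, and KO 1 lay within the WT range. Means were 256 ± 69.0 CPM in WT against 150 ± 77.6 CPM in KO (SD, n = 4), a log2 fold change of -0.77 ± 0.374 (SE; edgeR adjusted p = 0.492). With the replicate block Stat2 fell by 0.88 ± 0.199 on the log2 scale (edgeR adjusted p = 0.0326), and it was lower in KO in 4 of 4 pairs, as were 19.6% of all tested genes. Without 1 number each time the blocked adjusted p ran from 0.0214 to 0.102 and passed only without number 1. With melanoma level (the list averaged as log2 CPM) as a covariate the log2 fold change was -0.35 ± 0.265 (edgeR adjusted p = 0.861), and with the covariate and the block it was -1.20 ± 0.386 (adjusted p = 0.763).

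Stat3, the factor of interleukin-6 and interleukin-10, was at 163, 185, 138 and 157 CPM in WT 1 to 4, against 150, 135, 93.4 and 120 CPM in KO 1 to 4. All WT libraries but WT 3 were above all KO libraries. Means were 161 ± 19.4 CPM in WT against 124 ± 24.0 CPM in KO (log2 fold change -0.37 ± 0.161, edgeR adjusted p = 0.492, unadjusted p = 0.0501). Stat3 fell by 0.38 ± 0.10 with the block (edgeR adjusted p = 0.0453), and that call was lost without any 1 of the 4 numbers (adjusted p = 0.0660 to 0.188). The covariate fit gave -0.18 ± 0.128 (adjusted p = 0.849).

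Stat6, the interleukin-4 factor, was at 316, 308, 218 and 236 CPM in WT 1 to 4, against 277, 254, 147 and 211 CPM in KO 1 to 4. In both genotypes numbers 1 and 2 were above numbers 3 and 4. The log2 fold change was -0.28 ± 0.219 (edgeR adjusted p = 0.533; 0.0919 with the block), and with the melanoma covariate it was 0.03 ± 0.143, on the other side of 0, and -0.31 ± 0.257 with the block added. Without KO 3 it was -0.12. Stat6 had a positive relation to genes of T and NK cells, described below (Pearson r = 0.855, permutation p = 0.00352, adjusted p = 0.0158). Stat6 had a negative relation to the melanoma list (Pearson r = -0.895, permutation p = 3.22e-04, adjusted p = 0.00469 over 27 relations; by rank, Spearman rho = -0.976, permutation p = 3.97e-04, adjusted p = 0.00536; r = -0.978 without WT 1 and WT 2).

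**Figure D2:**
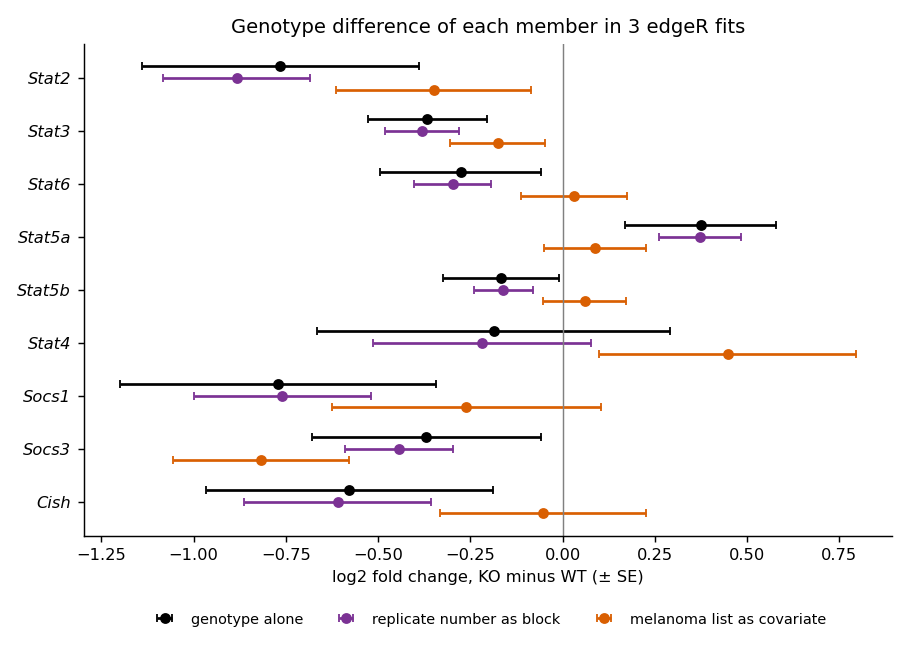
Log2 fold change of each member, KO minus WT, with its SE from 3 edgeR fits: genotype alone, the replicate number as a block, and the melanoma list as a covariate. The melanoma covariate brings 7 of the 9 values closer to 0 and moves those of Socs3 and Stat4 away from it; Stat4, Stat5b and Stat6 change sign, which they do not in a fit with both the covariate and the block (-0.26, -0.15 and -0.31).

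Stat5a and Stat5b, close copies of one another that lie side by side on chromosome 11, had opposite signs. In the same coordinates Stat5b spans 100671557 to 100741550 (minus strand), Stat5a 100750177 to 100775995 (plus strand) and Stat3 100775924 to 100830366 (minus strand). Stat5a and Stat3 overlap there by 72 bases, and the strand setting of the counting is not given in the sources used here, so reads of that stretch, and reads shared between the Stat5 copies, make these levels uncertain. Stat5a was at 16.5, 17.5, 26.1 and 22.2 CPM in WT 1 to 4, against 24.1, 22.2, 35.6 and 24.7 CPM in KO 1 to 4. It was lowest in WT 1 and WT 2, highest in KO 3, and higher in KO in 4 of 4 pairs, as were 23.9% of all tested genes. The log2 fold change was 0.37 ± 0.204 (edgeR adjusted p = 0.492; 0.0608 with the block), and 0.20 without KO 3. Stat5b was at 88.0, 88.7, 59.5 and 77.1 CPM in WT 1 to 4, against 77.4, 78.2, 57.4 and 66.1 CPM in KO 1 to 4, with the number 3 library lowest in each genotype (log2 fold change -0.17 ± 0.158, edgeR adjusted p = 0.580; 0.204 with the block). Without 1 library it ran from -0.28 (without WT 3) to -0.09 (without KO 3). With the melanoma covariate the values were 0.09 ± 0.139 for Stat5a and 0.06 ± 0.113 for Stat5b.

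The Stat5a to Stat5b ratio does not depend on library scaling. In FPKM it was 0.146, 0.154, 0.341 and 0.224 in WT 1 to 4, against 0.242, 0.221, 0.482 and 0.290 for KO 1 to 4. It was higher in KO in 4 of 4 pairs, yet WT 3 exceeded 3 of the KO libraries and WT 4 exceeded KO 2. The mean log2 difference was 0.53 (exact permutation p = 0.229, adjusted p = 0.381 over 5 ratios, 2-sided; 0.0286 is the smallest p that 4 against 4 allows), and 0.30 without KO 3. Stat5a had a positive relation to the melanoma list (n = 8 libraries; Pearson r = 0.912, permutation p = 0.00188, adjusted p = 0.0151; by rank, Spearman rho = 0.857, permutation p = 0.0107, adjusted p = 0.0241) and Stat5b a negative one (Pearson r = -0.879, permutation p = 0.00501, adjusted p = 0.0193; by rank, Spearman rho = -0.952, permutation p = 0.00114, adjusted p = 0.00770). Without WT 1 and WT 2, which lay farthest from the list median, r was 0.811 and -0.829. These relations used TMM-scaled CPM. With libraries scaled by total counts alone, as FPKM is, the relation of Stat5b no longer passed and that of Stat5a still did. Both sides of such a relation are shares of 1 library, a dependence outside the permutation test.

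**Figure D3:**
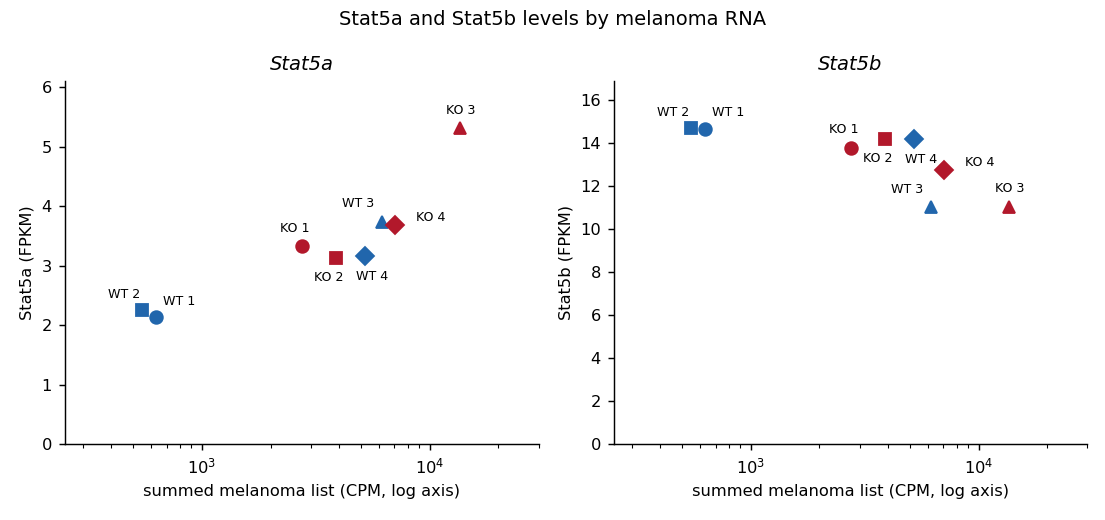
FPKM of Stat5a (left) and Stat5b (right) against the summed CPM of the 10 melanoma genes on a log axis, WT libraries in blue and KO libraries in red. Stat5a goes up from 2.13 FPKM in WT 1 to 5.31 FPKM in KO 3, and Stat5b is lowest in WT 3 and KO 3.

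Stat4, the interleukin-12 factor best known from T and NK cells, was at 5.69, 13.5, 5.14 and 4.82 CPM in WT 1 to 4, against 10.8, 7.71, 3.76 and 3.36 CPM in KO 1 to 4. WT 2 stood far above the other WT libraries, and the groups overlapped widely. The log2 fold change was -0.19 ± 0.478 (edgeR adjusted p = 0.839; 0.639 with the block), and without 1 library it ran from -0.57 (without KO 1) to 0.30 (without WT 2), with the sign also changed without KO 4 (0.02). With the melanoma covariate it was 0.45 ± 0.347, and -0.26 ± 0.602 with the block added. All 13 T cell genes and all 10 NK cell genes were detected in every library. Together they summed to 335, 506, 216 and 233 CPM in WT 1 to 4, against 417, 307, 124 and 135 CPM in KO 1 to 4. The defining T cell gene Cd3e ran from 5.88 to 24.0 CPM and the NK cell gene Ncr1 from 0.443 to 2.48 CPM over the 8 libraries. Klrk1 alone ran from 77.6 to 124 CPM in WT and 32.9 to 98.1 CPM in KO. The 10 NK cell genes summed to 111 to 210 CPM and 53.0 to 156 CPM, so Klrk1 weighs heavily in sums and counts of these lists.

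Stat4 followed those lists closely (Pearson r = 0.956, permutation p = 3.47e-04, adjusted p = 0.00469; by rank, Spearman rho = 0.976, permutation p = 3.97e-04, adjusted p = 0.00536; r = 0.930 without KO 3 and KO 4, which lay farthest out). Counted against them, Stat4 had 1.71, 2.67, 2.39 and 2.08 counts per 100 T and NK cell counts in WT 1 to 4, against 2.59, 2.52, 3.05 and 2.51 for KO 1 to 4. These ranges overlapped through WT 2, and the mean log2 difference of 0.28 did not pass (exact permutation p = 0.143, adjusted p = 0.381), and was 0.17 without WT 1. Stat4 also had a negative relation to the melanoma list by rank (Spearman rho = -0.881, permutation p = 0.00724, adjusted p = 0.0196). By Pearson r = -0.702 it did not pass (permutation p = 0.0526, adjusted p = 0.0887).

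Socs1, the inhibitor of interferon signalling, was the least abundant member in counts, with 24 to 79 counts per WT library and 18 to 51 per KO library. It was at 4.34, 4.44, 1.49 and 3.79 CPM in WT 1 to 4, against 2.84, 2.45, 0.996 and 1.94 CPM in KO 1 to 4. Apart from WT 3, each WT library was above all KO libraries. Its log2 fold change of -0.77 ± 0.428 was the largest of the 9 in size (edgeR adjusted p = 0.492; 0.0700 with the block), and it was -0.26 ± 0.366 with the melanoma covariate. Leaving out 1 library at a time moved it between -1.02 and -0.55.

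Socs3, the inhibitor of interleukin-6 family signals, did not follow the other inhibitors. It was at 32.2, 27.4, 45.3 and 39.8 CPM in WT 1 to 4, against 21.7, 18.6, 48.1 and 23.7 CPM in KO 1 to 4. KO 1, KO 2 and KO 4 lay below every WT library, and KO 3 lay above every one. The log2 fold change was -0.37 ± 0.310 (edgeR adjusted p = 0.548; 0.0785 with the block). Without KO 3 it was -0.76 (adjusted p = 0.860), without KO 2 it was -0.24, and with the melanoma covariate it was -0.82 ± 0.238 (unadjusted p = 0.00661, adjusted p = 0.427). Socs3 was the only member whose difference grew in size with that covariate and kept its sign; with the block added it was -0.41 ± 0.308.

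Socs3 was also compared with Stat3, which can induce it. The Socs3 to Stat3 ratio in FPKM was 0.653, 0.489, 1.08 and 0.837 in WT 1 to 4, against 0.478, 0.455, 1.70 and 0.651 for KO 1 to 4, with KO 3 apart from the rest. The mean log2 difference was -0.07 (exact permutation p = 0.857, adjusted p = 0.857). Immediate early and dissociation genes, 15 in all, which respond to tissue handling and were detected in every library, summed to 6239, 5062, 6982 and 4665 CPM in WT 1 to 4, against 4363, 3098, 4725 and 2603 CPM in KO 1 to 4. Their relation to Socs3 did not pass the adjusted threshold (Pearson r = 0.690, permutation p = 0.0613, adjusted p = 0.0973; by rank, Spearman rho = 0.667, permutation p = 0.0831, adjusted p = 0.140; r = 0.383 without KO 2 and KO 4). The part of handling in the Socs3 values was not tested further.

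Cish, an inhibitor induced by Stat5 with tandem GAS letters at its start, was at 6.48, 8.76, 5.07 and 3.53 CPM in WT 1 to 4, against 6.68, 4.03, 2.54 and 2.73 CPM in KO 1 to 4. KO 1 lay among the WT libraries, KO 2 between WT 4 and WT 3, and KO 3 and KO 4 below every WT library. The log2 fold change was -0.58 ± 0.390 (edgeR adjusted p = 0.500; 0.138 with the block) and -0.05 ± 0.280 with the melanoma covariate. Without 1 library it ran from -0.95 (without KO 1) to -0.33 (without WT 2). Cish had a negative relation to the melanoma list (Pearson r = -0.876, permutation p = 0.00330, adjusted p = 0.0158). Cish too followed the T and NK cell lists (Pearson r = 0.914, permutation p = 0.00223, adjusted p = 0.0151; by rank, Spearman rho = 0.952, permutation p = 0.00114, adjusted p = 0.00770; r = 0.793 without KO 3 and KO 4). It had 3.83 ± 0.795 counts per 100 T cell counts in WT, against 3.11 ± 0.936 for KO libraries (log2 difference -0.33, exact permutation p = 0.314, adjusted p = 0.393), a difference of -0.16 without KO 2 and -0.21 without WT 3. Against the sum of Stat5a and Stat5b in FPKM it was at 5.48 ± 1.70 per 100 in WT, against 3.80 ± 1.59 per 100 for KO libraries (exact permutation p = 0.20, adjusted p = 0.381).

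**Figure D4:**
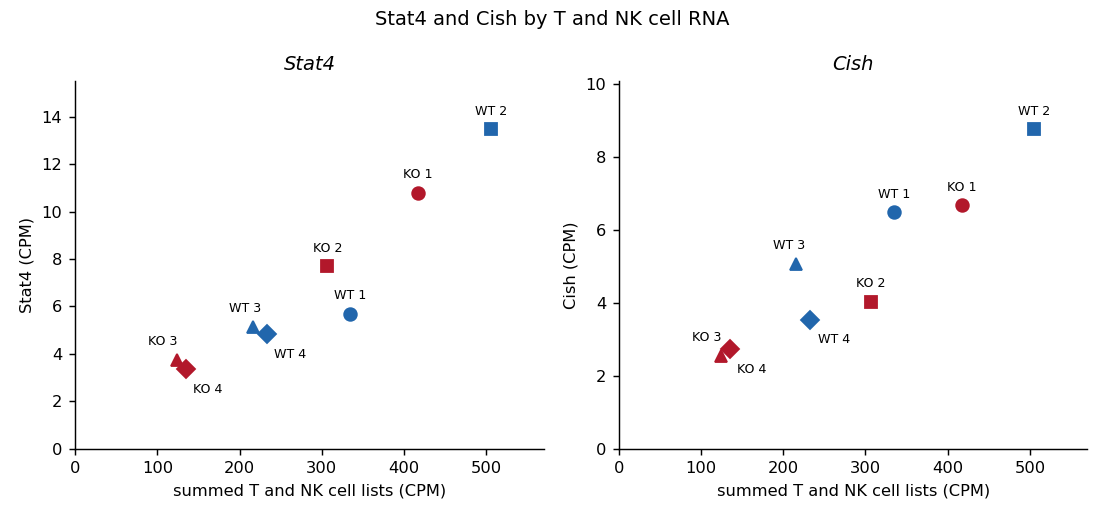
CPM of Stat4 (left) and Cish (right) against the summed CPM of the T cell and NK cell lists, WT libraries in blue and KO libraries in red, all axes from 0. WT 2 and KO 1 are highest and KO 3 and KO 4 lowest on both axes of both panels.

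Of the 27 relations of the 9 members to the melanoma, T and NK cell and immediate early lists, 13 passed the adjusted threshold by Pearson r: 7 of 9 with melanoma, 6 of 9 with T and NK cells and 0 of 9 with immediate early genes. At the largest permutation p that passed among them, 0.0200, 40.7% of all tested genes also passed with melanoma, 35.6% with T and NK cells and 1.25% with immediate early genes, so such relations were common in these libraries. Stat2, Stat3, Stat5b, Stat6 and Cish passed with both melanoma and T and NK cells, with opposite signs. With libraries scaled by total counts alone 7 of 27 passed. Those lost were Stat2, Stat3, Stat5b and Socs1 with melanoma, and Stat3 and Stat5b with T and NK cells. Without KO 3 and KO 4, r with T and NK cells was 0.616 for Stat2, 0.516 for Stat3, 0.678 for Stat5b and 0.819 for Stat6. Between members, as a description of log2 CPM over 8 libraries that share scaling, Stat2 correlated with Stat3 at r = 0.989 and Stat5a with Stat6 at r = -0.940, while Socs3 had r between -0.530 and 0.394 with the other 8. By the same measure over 8 libraries, the genes most like Stat2 among 10595 or 10596 candidates with a mean of at least 5 CPM were Hltf (r = 0.996) and Xaf1 (0.995). Those most like Stat3 were H2-T23 (0.998), a non-classical MHC class I gene, and Psmb8 (0.996), an immunoproteasome subunit. Stat4 had Lat (0.995), the T cell receptor adaptor, and Phip (0.990). Stat5a had Prkd3 (0.996) and Galnt12 (0.993), Stat5b Tlnrd1 (0.995) and Atp6v1h (0.988), and Stat6 Vav2 (0.999) and Prkcb (0.998). Socs1 had Hivep3 (0.976), Socs3 Vill (0.943) and Dock6 (0.935), and Cish Prrg2 (0.986) and Unkl (0.980).

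The rest of the pathway was taken from 8 lists, which share some genes with each other and, through Cish and Socs1, with the 9 members. Without the block 0 listed genes passed. With it, 30 of the 118 distinct genes tested did, 29 lower and 1 higher, beside 5.01% lower and 8.98% higher among all tested genes. It was 0 with the block and the melanoma covariate together, a fit that leaves few degrees of freedom with 8 libraries. Melanoma sums were also higher in KO at every number, so a call lost there does not show that a difference is absent. The count with the block alone was 28 without number 4, 19 without number 1 and 0 without number 2 or 3, so the blocked calls that follow rest on numbers 2 and 3.

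Among 30 receptor chains, 24 had lower and 6 higher values in KO, at a median of -0.28 on the log2 scale, and 3 fell with the block (50.4% and 5.01% of all tested genes had lower values and fell). The GM-CSF receptor chain Csf2rb, upstream of Stat5, had 421 ± 77.9 CPM in WT against 254 ± 74.99 CPM in KO (log2 fold change -0.73 ± 0.254, edgeR adjusted p = 0.492; 0.0254 with the block), and its near-copy Csf2rb2 had 162 ± 20.3 CPM and 101 ± 31.9 CPM (-0.68 ± 0.245; 0.0279 with the block). The third was Il10ra, named after its values were seen (-0.50 ± 0.256; 0.0348 with the block). The genotypes did not overlap for either Csf2rb gene, 2 of 30 chains, where this held for 5.56% of all tested genes, and reads shared between the copies make both uncertain. By mean FPKM the most abundant chains were Ifngr1, for interferon gamma (171 FPKM), and Csf2ra (91.0 FPKM). Ifngr1 was at 539 ± 114 CPM in WT against 447 ± 147 CPM in KO and Csf2ra at 292 ± 50.4 CPM and 237 ± 90.1 CPM. All 4 kinases had lower values and none passed in either fit: Jak1 had a log2 fold change of -0.14 ± 0.235, Jak2 of -0.13 ± 0.173, Jak3 of -0.33 ± 0.278 and Tyk2 of -0.24 ± 0.221.

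Of 22 cytokines, 11 were expressed enough to be tested. Their median was -0.43, with 7 lower and 4 higher, and 3 fell with the block. Of all tested genes 50.4% had lower values and 5.01% fell with the block. Il10, the anti-inflammatory cytokine that signals through Stat3, had 18.5 ± 8.05 CPM in WT against 7.85 ± 1.71 CPM in KO (log2 fold change -1.24 ± 0.317, edgeR adjusted p = 0.492; 0.0254 with the block). Il27 had 13.2 ± 3.005 CPM and 6.89 ± 3.52 CPM (-0.94 ± 0.371; 0.0273 with the block), and Il15 had 40.7 ± 6.36 CPM and 27.3 ± 11.7 CPM (-0.58 ± 0.307; 0.0470 with the block). Among 17 other negative regulators the median was -0.10, and Usp18, which blocks the interferon alpha receptor, fell with the block (-0.60 ± 0.326 without it). Socs5 stood at -0.30 ± 0.130, and the phosphatases Ptpn6 at -0.21 ± 0.281 and Ptpn1 at -0.36 ± 0.298.

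Lists of target genes, chosen with earlier results of these data known, differed in their medians. Among all tested genes 50.4% had lower values, while 5.01% fell and 8.98% rose with the block. The 22 targets of the Stat2-containing complex had lower values in 22 of 22, with a median of -0.72, and 18 fell with the block. Among them the nucleic acid sensor Zbp1 had a log2 fold change of -1.20 ± 0.359, Ifit2 of -0.96 ± 0.301, Irf7 of -0.76 ± 0.356 and Oas2 of -0.40 ± 0.343. WT and KO libraries did not overlap for 1 of these 22 genes, where this held for 5.56% of all tested genes. The 15 Stat3 targets had a median of -0.29 and 4 fell with the block, Il10 from the cytokine list, Junb (-0.64 ± 0.205), also an immediate early gene, the survival factor Mcl1 (-0.48 ± 0.279) and Fgl2, named after its values were seen (-0.99 ± 0.321). The 17 tested Stat6 targets had a median of -0.27 and 1 fell with the block, Tgm2 (-0.79 ± 0.506), while Retnla (-1.30 ± 0.484), Fn1 (-0.75 ± 0.310) and the mannose receptor Mrc1 (-0.54 ± 0.400) did not pass. The 11 Stat5 targets had a median of 0.06: Id1 fell with the block (-0.79 ± 0.263), Ccnd2, named after its values were seen, rose (0.66 ± 0.322), and the kinase Pim1 (-0.45 ± 0.175) did not pass.

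**Figure D5:**
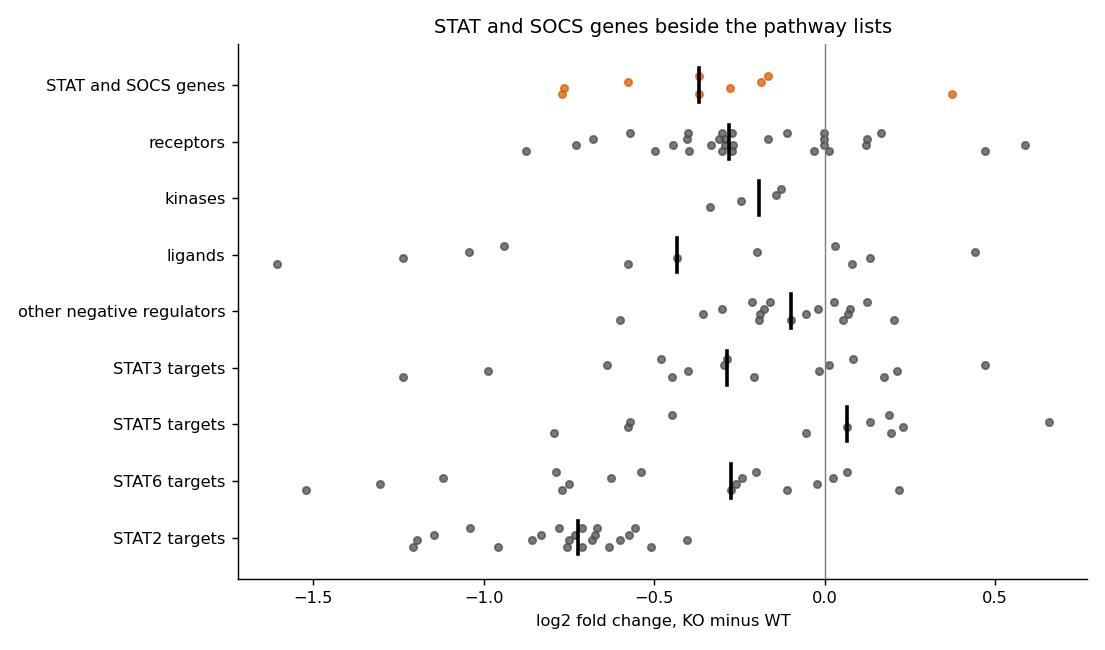
Log2 fold change, KO minus WT, without a block, of each tested gene of the 9 STAT and SOCS genes (orange) and of the 8 pathway lists (grey), with a black bar at each median; the vertical spread of points has no meaning. All 22 Stat2 target genes lie below 0, and the Stat5 target median, 0.06, is the only one above it.

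Markers of other liver and blood cells were also detected. Summed monocyte genes ran from 351 to 531 CPM (WT) and 277 to 447 CPM (KO), dendritic cell genes from 213 to 350 CPM and 198 to 336 CPM, neutrophil genes from 213 to 266 CPM and 139 to 308 CPM, and B cell genes from 28.6 to 41.2 CPM and 18.9 to 47.1 CPM. Hepatocyte genes ran from 413 to 1856 CPM (WT) and 168 to 716 CPM (KO), sinusoidal endothelial genes from 442 to 808 CPM and 192 to 587 CPM, stellate cell genes from 75.5 to 194 CPM and 43.8 to 61.4 CPM, and erythroid genes from 7.19 to 31.6 CPM and 4.72 to 10.9 CPM. The neutrophil gene Ly6g was at 0 in 4 libraries, and the erythroid gene Klf1 at 0 in 5. The part of these cells in the STAT and SOCS values was not tested.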

How the data were processed

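Bulk RNA-seq of sorted Kupffer cells was available for 4 WT and 4 KO libraries, prepared with the VAHTS Universal V8 kit according to the labels' protocols. HTSeq 0.6.1 and mm10 are named in the submitters' processing notes; the aligner, strandedness and annotation were not given in the sources used here. The deposited table holds raw counts per gene and the authors' FPKM values, per the file headers, with exonic sizes and positions as other numbers. The deposited FPKM equalled counts over exonic size and column total within 0.015 in 100% of genes. Column letters C and K were read as WT and KO, digits as the number in the title.

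Counts were filtered by filterByExpr (15870 genes), TMM-scaled and compared in edgeR 4.0.16 (R 4.3.3; limma 3.58.1, DESeq2 1.42.0) with its quasi-likelihood F test; p-values were adjusted after Benjamini and Hochberg over every tested gene, calling those under 0.05. The SE of a log2 fold change is its size over the root of F. Log2 CPM used a prior count of 2. Ratios (0.5 added to counts, 0.01 to FPKM) were tested over 70 splits and correlations over 40320 pairings. Scripts were tested on simulated data.

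Deviations from genotype means correlated between equally numbered libraries at 0.561, 0.544, 0.660 and 0.290 for numbers 1 to 4. Each exceeded 0.1, so the numbers were taken as pairs, from these values and not from the labels. The match is not by number alone: WT 2 correlated more with KO 1 (0.669) and WT 4 with KO 3 (0.557). WT 1 with KO 2 (0.445) and WT 3 with KO 4 (0.309) exceeded 0.1 too, so this rule cannot identify pairs. The blocked calls and the counts over 4 pairs come from the same data and rest on a pairing that is not established. The biological coefficient of variation was 33.3%. Replicates differed by more than sampling noise (chi-square per degree of freedom at least 10.0). Members and lists were chosen with earlier results of these data known. Named genes are the 9 members, the 2 most expressed and the 2 with the smallest p of each pathway list, and the 2 genes most correlated with each member at a mean CPM of at least 5. Some genes that this rule names are not reported here. Alternatives were other scalings, no filter, DESeq2, limma on log2(FPKM + 1) and log2(FPKM + 0.1), the block, a melanoma covariate and leaving out libraries.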

Additional observations from a re-analysis of the deposited data

Results flagged for a closer look

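A library stood apart from the other 3 of its genotype by Dixon's gap test in 6 of the 56 groups of 4 values tested, where chance gives about 1 in 20. Among WT libraries these were Stat4 in WT 2 at 13.5 CPM, the summed hepatocyte genes in WT 3 at 1856 CPM and the summed stellate cell genes in WT 3 at 194 CPM. Among KO libraries they were the Socs3 to Stat3 ratio in KO 3 at 1.70, Stat4 in KO 3 at 3.05 counts per 100 T and NK cell counts, and the summed erythroid genes in KO 1 at 10.9 CPM.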

How the results depend on the processing

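Across 198 recomputed values of the 9 members, 190 kept their sign and their side of the threshold. No member passed in the fit reported, so keeping its side meant only that a value again did not pass. With the melanoma covariate the log2 fold changes of Stat4, Stat5b and Stat6 were 0.45, 0.059 and 0.030, above 0, but -0.26, -0.15 and -0.31 with the block added, and that of Stat4 ran from -0.57 to 0.30 without 1 library, above 0 without WT 2 (0.30) and KO 4 (0.017). The 3 values that passed were Stat2 and Stat3 with the replicate block and Stat2 with it but without number 1 (-1.16); the block changed no other member's call. Over all genes 1 passed in the fit reported, 2220 with the replicate block (1425 higher), 66 with DESeq2 (30 higher), 2 with no filter and 2 with the melanoma covariate and the block together; without 1 library it was 1 to 2. Blocked counts without number 1, 2, 3 or 4 were 207, 2, 1 and 2229 (chosen after seeing the data), and those of pathway genes 19, 0, 0 and 28 beside 30 with all numbers. The Socs3 to Stat3 log2 difference of -0.07 ran from -0.49 to 0.14 without 1 library, above 0 at 0.12 without WT 3 and without KO 1 and 0.14 without KO 2. The other 4 ratios kept their sign. With total counts alone 7 in place of 13 relations to marker lists passed, and r with the immediate early list turned for Stat4 (-0.024), Stat5a (0.043), Stat6 (-0.17) and Socs1 (-0.18). The causes were not tested. Depth limits Socs1 and Cish most, at 18 to 79 and 46 to 156 counts a library.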
